A study of Homo sapiens with 3 samples.

Results

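The genes described here encode the proteins of the cytosolic ribosome. They were chosen by symbol alone: RPL or RPS, a number and then nothing or A, X, L or AL, together with RPLP0, RPLP1, RPLP2 and RPSA, with no kinases and no pseudogenes. Of 18417 genes with a probe set that carried their symbol and no other, 62 met this rule, 40 of the large subunit and 22 of the small subunit. RNA of HepG2, an established line from a human liver tumour, was hybridised to 3 Affymetrix arrays. The first array held untreated cells, the second held cells given graphene oxide (GO) and the last held cells given reduced graphene oxide (rGO), which carries fewer oxygen groups. Both exposures lasted 24 h at the material's own EC20, a dose set from viability assays at the 20% level. Concentrations are not in the labels, and GO and rGO may have been given at different doses. Each group was 1 array, and every value below is therefore a single measurement or a difference of 2 single arrays, with no replicate error and no test. No p-value could be had for any comparison, and precision is limited by the number of arrays.

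A ribosome joins a small subunit, which holds the mRNA and reads its codons, to a large subunit, which forms the peptide bond and passes the new chain through an exit tunnel. Ribosomal proteins are made in near-equal amounts, and subunits that fail to assemble are degraded together with surplus free proteins. Their mRNAs are abundant and carry a run of pyrimidines at the 5′ end, the terminal oligopyrimidine, through which the mTOR pathway and the binding protein LARP1 control their translation and stability. The genome holds many processed pseudogenes of these genes, so that a probe set on an array can read transcripts of copies as well.

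The pyrimidine run was read from the RefSeq start sites, since the rule for members did not use it. Of the 62 genes, 51 had an entry in the promoter table (build GRCh38.p14, 250 bases before and 50 after each start). Of these, 36 (70.6%) had a C as the first transcribed base followed by at least 4 bases that were each C or T at one of their listed starts. The same held for 1404 of all 27305 genes of the table (5.14%), for 7.31% of the measured genes with an entry whose level passed a filter (log2 6.66, the 40th percentile), and for 13 of 14 other genes listed as carrying such a start, among them EEF2 and PABPC1. The letters CCGGAA, the core of sites of ETS factors, stood on either strand in 29 of the 51 promoters (56.9%) against 20.1% of all genes and 34.6% of the 8886 genes past the level filter with an entry, and in 6 members they shared bases with the pyrimidine run. AAGATGGC, a core of YY1 sites, stood in 4 (7.84% against 3.52% and 6.81%), and TATAAA in 5 (9.80% against 13.99% and 8.42%), both strands searched. The start sites of members at both ends of the GO comparison and of 3 paralogues are shown with 15 bases before and 15 after the start, 5′ to 3′, and the capitals mark the pyrimidine run from the first transcribed base.
RPL34, chr4:108620561-108620590, plus strand: aaaggcttttttcttCCTCTTCCggggacg
RPS7, chr2:3575245-3575274, plus strand: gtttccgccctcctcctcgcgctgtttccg
RPL31, chr2:101002274-101002303, plus strand: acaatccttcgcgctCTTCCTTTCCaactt
RPS3A, chr4:151099613-151099642, plus strand: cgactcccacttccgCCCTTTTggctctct
RPL17, chr18:49492451-49492480, minus strand: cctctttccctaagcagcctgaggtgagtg
RPL32, chr3:12841551-12841580, minus strand: gggttacgacccatcagcccttgcgcgcca
RPS19, chr19:41860240-41860269, plus strand: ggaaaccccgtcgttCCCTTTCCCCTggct
RPLP2, chr11:809952-809981, plus strand: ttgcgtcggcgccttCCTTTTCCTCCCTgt
RPL28, chr19:55385917-55385946, plus strand: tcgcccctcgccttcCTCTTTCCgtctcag
RPL36AL, chr14:49620612-49620641, minus strand: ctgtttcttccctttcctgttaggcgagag
RPL10L, chr14:46651767-46651796, minus strand: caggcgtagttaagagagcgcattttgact
RPS27L, chr15:63157463-63157492, minus strand: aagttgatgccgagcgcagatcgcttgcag
Among those lower after GO, RPL34, RPL31 and RPS3A had the run at a listed start and RPS7 and RPL17 did not. Among those higher, RPS19, RPLP2 and RPL28 had it at a listed start and RPL32 did not. RPL17 and RPL32 began with an A at the start shown, and in RPL17 a stretch of pyrimidines stood before it. RPS7 and RPL36AL did not meet the definition because their run ended after 3 bases, although pyrimidines also stood before the listed start. RPL10L and RPS27L began with a G at the listed start. The 36 members with the run at a listed start had a median GO difference of -0.08 and the other 15 with an entry one of -0.07. At least 1.5-fold lower were 3 of 36 and 2 of 15, where 4.23% of all genes past the filter were. Bases beside the listed starts were not searched, so the 15 may include genes whose mRNA does carry the run.

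Log2 values were given for 33297 probe sets, and the array medians lay between 6.63 and 6.66. A level filter at the 40th percentile of the genes' means over the arrays (log2 6.66) kept 11050 genes and 60 of the 62 members. The paralogues RPL3L and RPL39L did not pass. The median member value was 11.6 without exposure, 11.6 with GO and 11.5 with rGO, and 47 of the 62 had a mean of at least 10. All 9 measured hepatocyte markers of 10 listed passed the filter, with values from 10.8 to 13.6, ALB and APOB among them. Of 6 measured leukocyte markers 2 passed, CD68 and LYZ. LYZ stood at 13.23 in the control, 13.43 with GO and 13.38 with rGO, as bright as hepatocyte markers. CD68 stood at 9.61, 9.98 and 9.51, while PTPRC stood between 3.56 and 3.76 and CD3E between 4.70 and 4.77. Of 7 fibroblast and endothelial markers COL1A1 and PDGFRB passed, the highest value being 7.43. The mean over the leukocyte list, raised by LYZ, was 7.18 in the control, 7.22 with GO and 7.14 with rGO. That over the fibroblast and endothelial list was 6.25, 6.21 and 6.14. After GO, LYZ stood at 0.20, CD68 at 0.38 and PDGFRB at 0.33, and PDGFRB stood at -0.40 after rGO. Among hepatocyte markers the GO differences ran from -0.85 (FGB) to 0.70 (TTR). Their part in the results was not tested. In such bulk RNA, fewer cells of a type and less RNA per cell cannot be told apart.

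After GO, a minority of ribosomal protein genes stood clearly lower and most stood close to the untreated array. RPL34, a large subunit protein found in eukaryotes and archaea, was 2.03-fold lower, and RPL7, RPS7, RPL31 and RPS3A were 1.70-fold to 1.78-fold lower. The highest members were RPL28 (1.30-fold higher), the stalk protein RPLP2 (1.26-fold) and RPS19, the gene most often mutated in Diamond-Blackfan anaemia (1.23-fold). Among the 60 members past the filter, 36 were below and 24 above 0, with a median log2 difference of -0.07, a mean of -0.16 and a range from -1.02 to 0.38. Over all 11050 genes that passed, the median was 0.01 and 48.9% lay below 0, against 60% of the members.

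RPL34 was the only member at least 2-fold lower (1 of 60, 1.67%), where 0.914% of all genes past the filter were, and 0 members were at least 2-fold higher, where 0.253% of all genes were. At 1.5-fold, 6 members (10%) were lower, RPL34, RPL7, RPS7, RPL31, RPS3A and RPL17, against 4.23% of all genes, and 0 were higher against 1.91%. At a log2 difference of 0.32, the smallest size counted, 17 members (28.3%) were lower against 13.3% of all genes, and 2, RPL28 and RPLP2, were higher against 9.61%. Among the 1738 genes with a mean of at least 10, a level most members reached, the shares lower at these 3 sizes were 1.44%, 4.95% and 16.0%, and the shares higher were 0.345%, 2.3% and 10.2%. The 2-fold counts rest on 1 gene or none, and the lower one was 0 after median centring and after quantile normalization, so they cannot be read against the background. RPL17 and RPL10L lay just above the filter on average and below it with GO. Under a filter at the 60th percentile, which left 56 members, 5 (8.93%) were at least 1.5-fold lower against 5.09% of all genes and 14 (25%) lower by at least 0.32 against 14.97%. Genes of a complex are not independent, and without replicates none of these shares can be told from variation between 2 samples of cells.

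**Figure D1:**
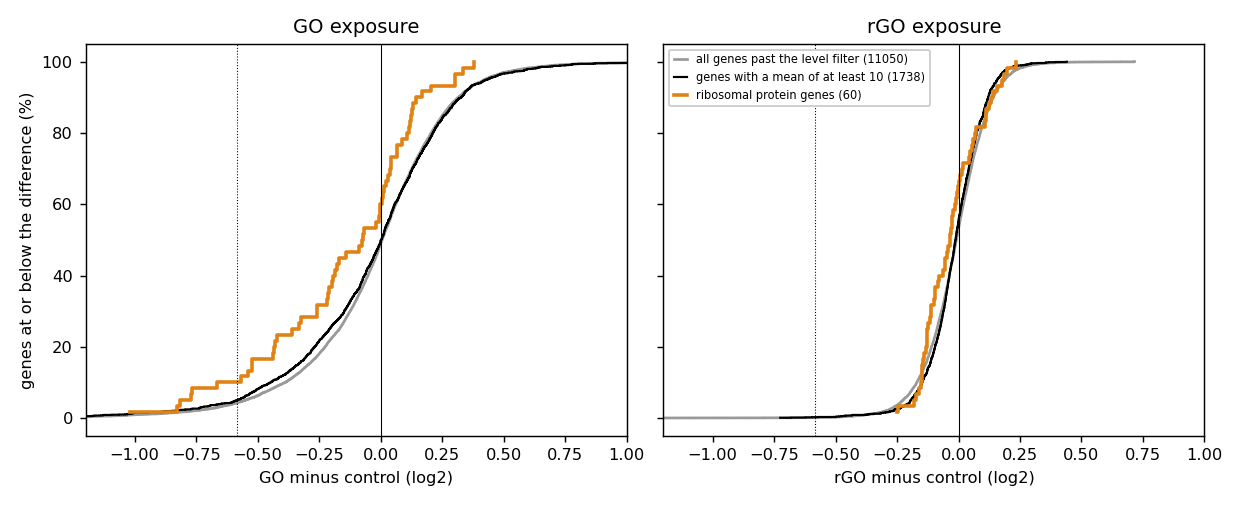
Share of genes (y axis, percent) at or below each log2 difference (x axis), GO minus control on the left and rGO minus control on the right, for the 60 ribosomal protein genes (orange), all 11050 genes (grey) and the 1738 genes with a mean of at least 10 (black), with the dotted line at 1.5-fold lower. The 60 ribosomal protein genes lie to the left of all 11050 genes after GO, with 10% against 4.23% past the dotted line, and close to them after rGO.

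The values of the 6 members at least 1.5-fold lower were as follows. RPL34 stood at 12.75 in the control, 12.60 with rGO and 11.73 with GO. RPL7, a large subunit protein of a family shared with bacteria, stood at 12.65, 12.49 and 11.82 in the same order. RPS7, a small subunit protein whose free form binds MDM2, stood at 11.10, 10.92 and 10.28. In each of them the GO array was the lowest and the rGO array lay just under the control. RPL31, which sits at the mouth of the exit tunnel, stood at 12.76, 12.67 and 11.99. RPS3A, a protein of the small subunit's platform, stood at 12.57, 12.43 and 11.80. RPL17, which lines the exit tunnel, was weakly measured at 6.98, 6.81 and 6.32, so that with GO it fell below the filter's threshold and part of a difference may be hidden by background. All 6 had the order of control, rGO and GO from high to low, which their choice as the lowest after GO largely fixes. Of the 60 members past the filter 29 (48.3%) had this order, against 24.3% of all genes past the filter and 31.1% of those with a mean of at least 10. The opposite order was found in 14 members (23.3%), against 24.1% and 26.2%.

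**Figure D2:**
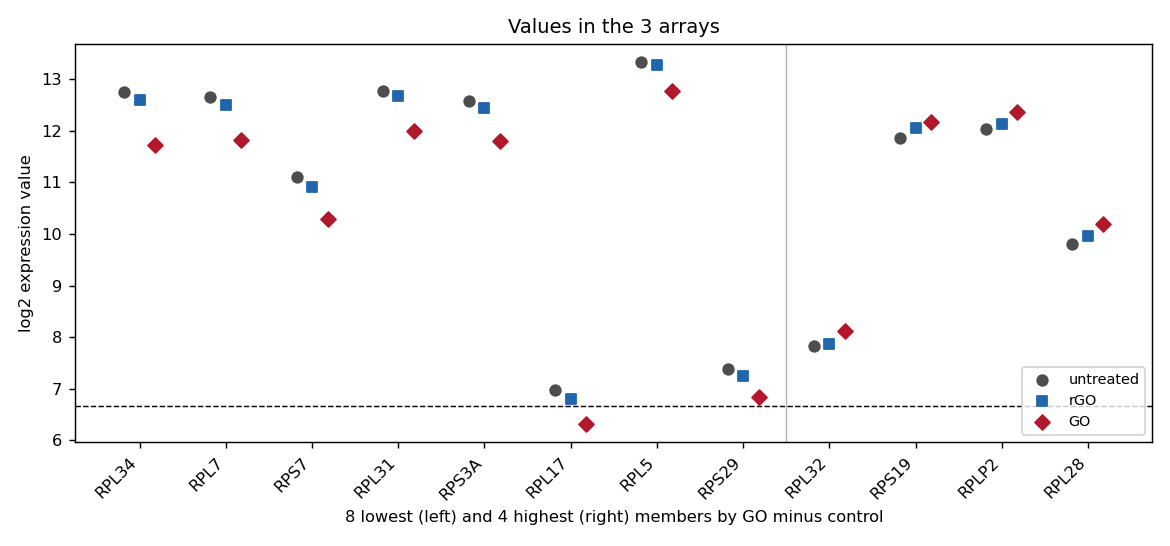
Log2 expression values (y axis) of the 8 members with the lowest and the 4 with the highest GO minus control difference (x axis), 1 point for each array, with the dashed line at the filter level of 6.66. In the 8 on the left the GO array is the lowest, by 1.02 against the control for RPL34, and in the 4 on the right it is the highest, by 0.38 for RPL28.

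Just short of 1.5-fold stood RPL5 (-0.57), RPS29 (-0.54), RPS27L (-0.52) and RPL26 (-0.52). RPL5 is bound to the 5S ribosomal RNA and, with RPL11, can hold MDM2 and so spare p53. RPS29 is a small zinc-binding protein of the small subunit's head. The next were RPL35 (-0.44), RPL30 (-0.43), RPL10L (-0.43), RPS21 (-0.42), RPS24 (-0.36), RPL35A (-0.33) and RPS15A (-0.32). Together with the 6 lower members these made up the 17 lower by at least 0.32. In the middle of the range RPS6, the substrate of the S6 kinases, stood at -0.02, and RPS4X, RPL11, RPS2 and RPS27 each lay within 0.01 of 0. On the higher side, after RPL28 (0.38), RPLP2 (0.34), RPS19 (0.30) and RPL32 (0.30), RPL7A stood at 0.20 and RPL29 at 0.17.

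**Figure D3:**
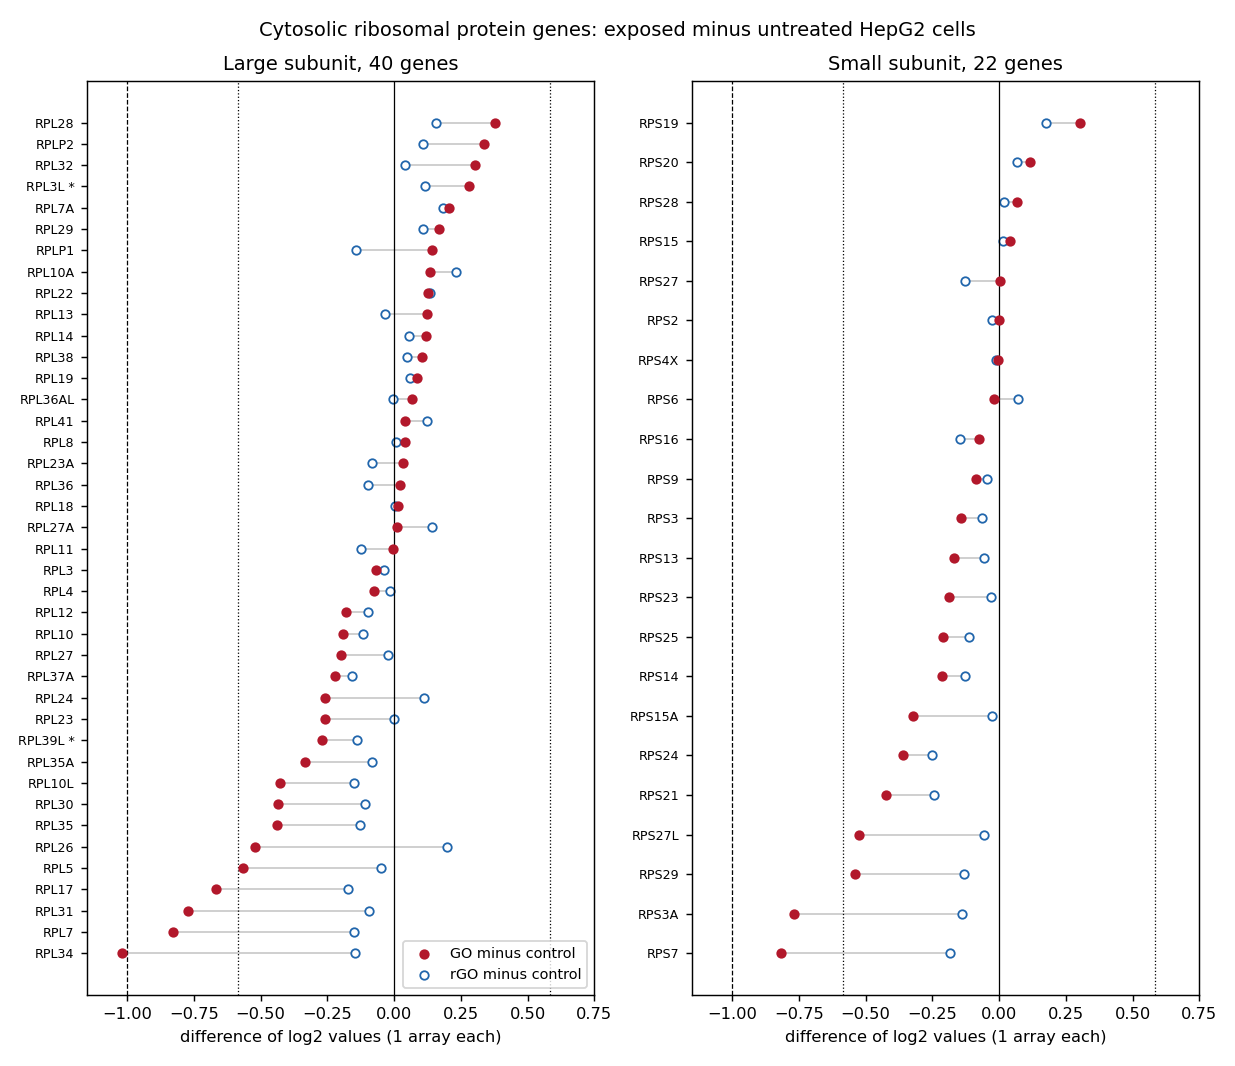
Log2 difference from the untreated array (x axis) for each of the 62 members (y axis), large subunit on the left and small subunit on the right, GO as filled and rGO as open points. Dotted lines mark 1.5-fold and the dashed line 2-fold lower, and a star marks the 2 genes under the level filter; GO spans -1.02 to 0.38 and rGO -0.25 to 0.23.

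The subunits were set side by side. The 38 large subunit members past the filter had a median of 0.00 after GO, with 19 below and 19 above 0, and the 22 small subunit members one of -0.15, with 17 below and 5 above. At least 1.5-fold lower were 4 of 38 and 2 of 22, where 4.23% of all genes were, counts too small to compare the subunits by. The medians differed by 0.16 in the GO comparison, less than the spread within either subunit (SD 0.34 and 0.28).

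By role, the 2 proteins of the 5S particle went apart after GO: RPL5 stood at 13.33 in the control, 13.28 with rGO and 12.76 with GO, and RPL11 at 11.86, 11.74 and 11.86. The GO difference was thus -0.57 for RPL5 and 0.00 for RPL11. The acidic stalk, which recruits elongation factors, was measured through RPLP1 and RPLP2. RPLP2 stood at 12.03, 12.14 and 12.37, and RPLP1 at 11.37, 11.23 and 11.52, with GO the highest in both. RPL12, at the base of the stalk, stood at 11.88, 11.78 and 11.70, with GO the lowest. RPLP0, the stalk's anchor, had no probe set with its symbol alone.

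The exit tunnel and its port were represented by 7 proteins with a median of -0.44 after GO, 5 below and 2 above 0. RPL31 (-0.77), RPL17 (-0.67), RPL26 (-0.52) and RPL35 (-0.44) were lower, whereas RPL4 (-0.07), RPL23A (0.03) and RPL19 (0.09) lay near the control. RPL26, which also binds the mRNA of p53, stood at 10.50 in the control, 10.70 with rGO and 9.98 with GO. It was the only one of the 17 lower members whose rGO value lay above the control. Around the peptidyl transferase centre RPL3, RPL8 and RPL10 stood at -0.07, 0.04 and -0.19. At the mRNA entry channel RPS2 and RPS3 stood at 0.00 and -0.14, and at the mRNA exit site RPS14 and RPS28 at -0.21 and 0.07.

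Proteins of families shared by all kingdoms of life had medians of -0.18 in the large subunit (15 genes, 11 below 0) and -0.14 in the small (11 genes, 9 below 0). Of 19 genes listed as mutated in Diamond-Blackfan anaemia, an inherited failure of red cell production, 15 were measured. These had a median of -0.33 with 11 below 0. The median was -0.07 over all members past the filter, which include these 15, and 0.01 over all genes past the filter. Below 0 lay 60% of those members and 48.9% of those genes. RPS7, RPL31, RPL5 and RPS29 were the lowest genes of the anaemia list and RPS19 the highest. These lists overlap and share members with the roles above, so their medians repeat in part the same values.

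The paralogues are near copies of a canonical protein that replace it in some tissues. RPL3L, a muscle form, stood at 6.46 in the control, 6.58 with rGO and 6.74 with GO, and RPL39L, a testis form, at 4.26, 4.12 and 3.99. Both lay under the filter level on average, where no direction can be read. RPL10L, another testis form, stood at 6.96, 6.81 and 6.53, with the GO value under that level, while RPL10 stood at -0.19. RPS27L, a p53 target, stood at 8.34, 8.28 and 7.82, a difference of -0.52, while RPS27 stood at 0.00. Probe sets that name RPS27 with other genes stood at -0.61 and -0.54. RPL36AL stood at 9.44, 9.44 and 9.51, a GO difference of 0.07. RPL36A was named only on probe sets with other symbols, which stood at -0.85 to -0.75 after GO. Copies this alike can share signal between probe sets, so single members are uncertain.

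A member's value depended in part on the probe set. Of the 62 members, 21 had more than 1 probe set with their symbol alone, and the one with the highest mean was used. Where each probe set lies in the genome was not checked, so the brightest one may read a pseudogene copy. In the GO comparison the range over a gene's probe sets had a median of 0.13 and reached 0.67 in RPS3A, and in 6 of the 21 genes the probe sets differed in sign. RPS3A was lower on all 5 of its probe sets, from -0.77 on the one used to -1.44. RPL7 was lower on all 3, from -0.83 to -0.87, and RPS7 on both, at -0.81 and -0.82. RPL31 stood at -0.77 and -0.57 and RPL5 at -0.57, -0.36 and -0.27. RPL34 stood at -1.02 on the bright probe set and at -0.46 on the dim one, whose GO value was 6.75. With the probe sets of each gene averaged, RPL34 stood at -0.74 and RPS3A, at -1.07, was the 1 member past 2-fold, whereas the same 6 genes were past 1.5-fold. RPL34 was also short of 2-fold after median centring (-0.996) and after quantile normalization (-0.95).

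**Figure D4:**
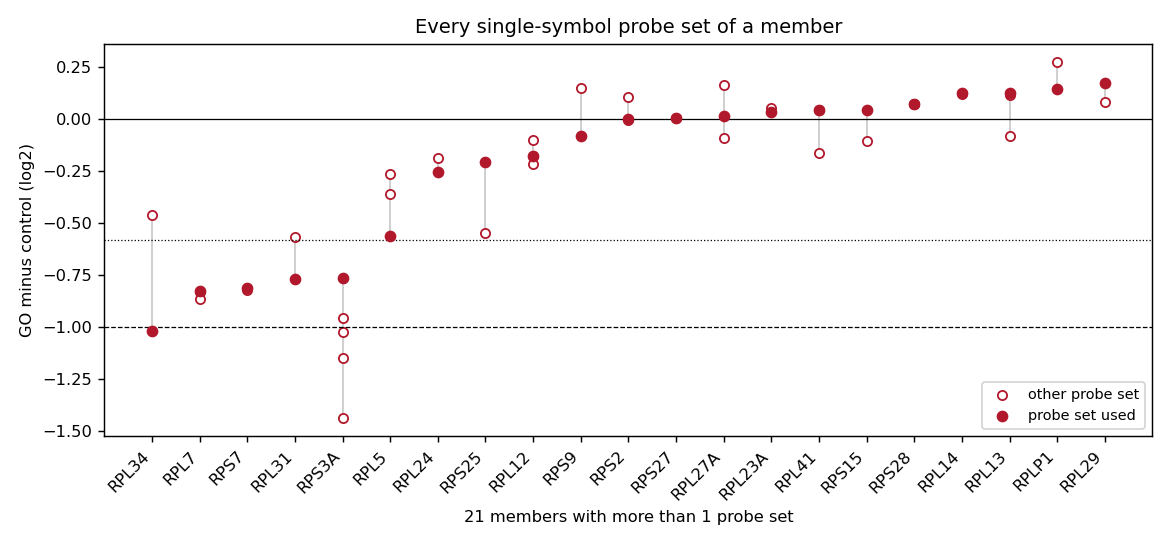
GO minus control log2 difference (y axis) of every probe set of the 21 members with more than 1 (x axis), the one used as a filled point, with lines at 0, 1.5-fold lower (dotted) and 2-fold lower (dashed). The probe sets of RPS3A span -1.44 to -0.77 and those of RPL34 -1.02 to -0.46, while those of RPL7, RPS7, RPS27 and RPS28 nearly coincide.

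After rGO the ribosomal protein genes lay close to the untreated array. The differences ran from -0.25 (RPS24) to 0.23 (RPL10A, of the mobile L1 stalk), with a median of -0.04 over the 60 members, 39 below and 21 above 0. Over all genes that passed, the median was -0.01, with 53.1% below 0 against 65% of the members. At 2-fold, 0 members were lower, against 0.0181% of all genes, and 0 were higher, against 0.0%. At 1.5-fold 0 were lower against 0.127% and 0 higher against 0.0271%. At a log2 difference of 0.32, 0 were lower against 1.49% and 0 higher against 0.67%. The rGO share of members below 0 was again larger in the small subunit, 17 of 22, than in the large, 22 of 38.

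The lowest members after rGO were RPS24 (-0.25), RPS21 (-0.24), RPS7 (-0.18), RPL17 (-0.17) and RPL37A (-0.16). RPS24 stood at 10.11 in the control, 9.86 with rGO and 9.75 with GO, and RPS21 at 9.22, 8.98 and 8.80. The highest were RPL10A (0.23), RPL26 (0.20), RPL7A (0.18), RPS19 (0.18) and RPL28 (0.16). RPL10A stood at 10.71, 10.94 and 10.84, with both exposed arrays above the control. For 365 genes with several probe sets past the filter level, the brightest and the next brightest were compared. Their disagreement, scaled down to a single probe set, had a robust SD (the scaled median absolute deviation) of 0.0539 after rGO and 0.0804 after GO. Another 66 genes with identical values on both were left out. Both probe sets of a gene read the same RNA on the same arrays, so their disagreement holds no variation between samples or arrays. The spread of the members themselves had a robust SD of 0.133 after rGO and 0.272 after GO, against 0.116 and 0.244 over all genes past the filter. Among genes with a mean of at least 10 it was 0.0986 and 0.277, so after GO the members were not more spread than these. The GO and rGO comparisons share the untreated array, so their differences are not independent.

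Set directly against each other, the GO array had lower values than the rGO array for 36 of the 60 members, with a median of -0.08, against 47.0% below 0 and a median of 0.01 over all genes. At 2-fold 0 members were lower, against 0.534%, and 0 were higher, against 0.262%. At 1.5-fold, 6 members (10%) were lower, against 3.2% of all genes, and 0 higher, against 1.82%. These were RPL34 (-0.87), RPL26 (-0.72), RPL7 (-0.68), RPL31 (-0.68), RPS7 (-0.63) and RPS3A (-0.63). At a log2 difference of 0.32, 12 members (20%) were lower against 11.5% and 0 higher against 8.58%. RPLP1 was the highest at 0.29, followed by RPL32 (0.26), RPLP2 (0.23) and RPL28 (0.22). Since the doses behind the EC20 of each material are unknown, the difference belongs to these 2 exposures and not to equal amounts of material.

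Other genes of translation were read from hand-written lists. Of 3 genes of ribosomal proteins outside the symbol rule that passed the filter, 1 was at least 1.5-fold lower, where 4.23% of all genes were. These were FAU, which encodes a small subunit protein fused to a ubiquitin-like one (0.05 after GO), and the copies RPL26L1 (-0.62) and RPL7L1 (-0.21). RPL22L1, at 6.44 in the control, did not pass the filter and stood at -0.56. Of 12 elongation and termination factors past the filter 0 differed by 1.5-fold, where 4.23% of all genes were lower and 1.91% higher, with a median of -0.04. ABCE1, which splits ribosomes after termination, stood at -0.49 and ETF1, the release factor, at -0.28. HBS1L, a partner in the rescue of stalled ribosomes, stood at -0.33, while EEFSEC, the selenocysteine factor, stood at 0.38 and EEF2 at 0.15.

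Of 12 subunits of initiation factor eIF3, 1 was at least 1.5-fold lower, against 4.23% of all genes, and 0 higher, against 1.91%, with a median of 0.05. EIF3M stood at -0.72 and EIF3E at -0.42, while EIF3K stood at 0.20 and EIF3I at 0.16. Of 23 other initiation factors 0 passed 1.5-fold, against the same shares of all genes, with a median of 0.05. EIF2S2 (-0.54) and EIF1AX (-0.51) were the lowest, and EIF4G1 (0.38) and EIF2S3 (0.33) the highest. The 17 other genes listed with a terminal oligopyrimidine start had a median of -0.13, with 10 below and 7 above 0. Past 1.5-fold were 0 of them, again against 4.23% of all genes lower and 1.91% higher. EIF3E (-0.42) and TPT1 (-0.37) were the lowest and EEF2 (0.15) and BTF3 (0.12) the highest.

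Of 15 chaperones and import factors of ribosomal proteins, 1 was at least 1.5-fold lower after GO, against 4.23% of all genes, and 0 higher, against 1.91%, with a median of -0.11. Counts of 0 or 1 in lists this short are near the background. LTV1, which escorts small subunit precursors out of the nucleus and holds RPS3 in place, stood at 9.58 in the control, 9.71 with rGO and 8.68 with GO, a difference of -0.90. The importin IPO5 stood at -0.45, the RPL3 chaperone GRWD1 at 0.10 and BTF3 at 0.12. The list also holds AAR2 (0.18), which is known for assembly of the spliceosome and not as a chaperone of ribosomal proteins. Of 16 genes of mTOR and S6 kinase signalling 0 passed 1.5-fold, against 4.23% of all genes lower and 1.91% higher, with a median of 0.13 and 12 above 0. EEF2K, which inactivates elongation factor 2, stood at 0.46 and RPTOR at 0.35, whereas RPS6KA3 and RHEB both stood at -0.28. LARP1 stood at 0.15. After rGO 0 genes of these lists passed 1.5-fold, where 0.127% of all genes were lower and 0.0271% higher. The list medians lay between -0.09 and 0.05.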

How the data were processed

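The deposited values are the authors' log2 expression values per probe set of 3 arrays, 1 per group. RMA and MAS5 are named, with no role or version, in the submitters' processing notes. The array medians lay between 6.63 and 6.66 and the highest values between 14.23 and 14.47, and further scaling is unknown. Quantile normalization still shifted some bright members, such as RPL31 from -0.77 to -0.69 after GO. The authors' genome build is not given in the sources used here. Probe sets were named through the platform annotation, which can be old: 19460 carried 1 symbol, 1754 several and 12083 none listed. The Entrez IDs of all 62 members gave the same symbol in RefSeq. A gene was represented by its brightest single-symbol probe set. Differences of log2 values were counted past 2-fold, 1.5-fold and a log2 of 0.32, with no test because each group was 1 array. The members, lists and sizes were chosen with earlier results of these data known. Named members were those past 1.5-fold in a comparison, the 5 highest and 5 lowest of each, and the 5S particle, stalk and paralogues, beside a role that is not reported here. In the other lists the 2 highest and 2 lowest after GO past the filter were named, and other genes are examples picked after their values were seen. Only the 2-fold count was tried on simulated data, with a spread taken from rGO minus control, which is smaller than that of GO minus control. It called 22 of 50 genes changed 2-fold and 0 of 10850 unchanged genes. The counts at smaller sizes were not simulated. Promoter sequences came from RefSeq. Alternatives were quantile normalization, median centring, loess (span 0.3), no filter, a 60th percentile filter, averaged probe sets, means for medians, sizes up to 3-fold and leaving out paralogues. The background of genes with a mean of at least 10 was chosen after the data were seen. Python 3.11.15, numpy 2.4.6, pandas 2.3.3, statsmodels 0.14.6 and matplotlib 3.10.9 were used.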

Additional observations from a re-analysis of the deposited data

How the results depend on the processing

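No paired analysis was possible because each group had 1 array, and no replicate could be left out. The 1 member at least 2-fold lower after GO became 0 after median centring, after quantile normalization and at 3-fold, 6 at 1.5-fold and 17 at a log2 difference of 0.32. The count at least 2-fold higher, 0, became 2 at that smallest size. In GO minus rGO the count at least 2-fold lower, 0, became 6 at 1.5-fold and 12 at the smallest. At the smallest size, the count of higher members after GO went from 2 to 4 with median centring, and that of GO minus rGO from 0 to 1 with median centring and with quantile normalization. Other normalizations, filters and probe set choices at the sizes under 2-fold were added after the data were seen. The median GO difference was -0.07 and the mean -0.16, and over all settings this value lay between -0.16 and -0.04. The rGO value lay between -0.05 and -0.02, and that of GO minus rGO between -0.13 and -0.02. A median or a single gene counted as moved when it shifted by at least the robust SD between probe sets of a gene. A count was moved when it changed by more than 1.5 times, or from or to 0. Of the member counts and medians 12 values moved and 159 did not. Of the values for single genes and for counts over all genes 35 moved and 487 did not. Many of them could not move, since a filter leaves the difference of a single gene as it is. Averaging leaves a gene with a single probe set unchanged, and a setting for the medians repeated the main one. The totals that did not move therefore overstate how far the results were tried. Over all genes, those at least 2-fold lower after GO were 101, and 90 after quantile normalization. Dim members, such as RPL17, RPL10L and RPL22, have signals near background.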

Other observations

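Of 77 canonical ribosomal proteins whose symbols fit the naming rule, 20 had no probe set with their symbol alone, and 11 of these were named on probe sets that carried several symbols, mostly with a pseudogene, a read-through transcript or a small nucleolar RNA. Such signal cannot be assigned to 1 gene. There were 47 such probe sets with the symbol of a member or of 1 of these 11. The 4 probe sets listed for RPL9, which binds near the factor site of the large subunit, stood between 11.9 and 12.1 in the control and between 11.1 and 11.2 with GO, differences of -0.83 to -0.82, while rGO lay within 0.02 of the control. The 5 of RPL21 differed by -0.80 to -0.74 after GO, the 3 of RPL36A by -0.85 to -0.75 and the 2 of RPL6 by -0.68 on both. The 2 bright probe sets that name RPL17 with a read-through transcript stood at -0.95 and -0.94, from control values of 11.99 and 12.21.

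The 4 probe sets that name RPL10 with other genes stood at -0.67, -0.52, -0.40 and -0.08, below or above the -0.19 of its own probe set, and a probe set of RPL13 with SNORD68 stood at 0.51. Those of RPL7A with small nucleolar RNAs stood at -0.23 and 0.30, that of RPS3A with SNORD73A at -0.04, that of RPL23A with a pseudogene at 0.02 and the 3 of RPL41 between -0.01 and 0.02. The 2 of RPL39 stood at -0.33 and -0.32, RPS10 at -0.33, RPL13A at -0.28 and the 3 of RPS18 at -0.21, whereas the 6 of RPS26 were all higher, from 0.12 to 0.40. RPL37 stood at -0.08, and the 2 probe sets of RPS12 at 0.00 and 0.23. The 2 probe sets that name RPS27 together with other genes stood at -0.61 and -0.54, although both of its single-symbol probe sets stood at 0.00. A probe set that names RPS2 with the small nucleolar RNA SNORA64 stood at -0.43 after GO and at -0.83 after rGO, while the 3 probe sets of RPS2 alone lay within 0.11 of 0 in both comparisons.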
